A study of Mus musculus with 6 samples.

Results

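The 10 activity-regulated immediate early genes Fos, Fosb, Junb, Egr1, Npas4, Nr4a1, Nr4a3, Arc, Bdnf and Homer1 were taken by symbol from the 32285 genes of the count matrices, in all 6 single-nucleus libraries. They were chosen by name, with earlier results of these data known. The nuclei came from the prelimbic part of the medial prefrontal cortex of male C57BL/6 mice, and each library pooled tissue of several males. Run males were raised by dams that had a running wheel in the postpartum period, and Sed males by dams without one. After weaning they lived in groups (GH) or in social isolation (SI). Cohort 1 held 1 RunGH and 1 SedGH library, from males that had been through tube tests of social rank and were picked as top or bottom of their own group. Their nuclei were taken 1 day after the last tube test. Cohort 2 held 1 library each of RunGH, SedGH, RunSI and SedSI, from males without such tests. None of the offspring had a wheel of their own. The labels give postnatal day 21, the time of weaning, whereas the study describes adult tissue, so the age is given here as stated in each.

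Immediate early genes are transcribed within minutes of strong synaptic input, without new protein synthesis, when calcium entry and cAMP activate kinases that act on factors such as CREB, SRF and MEF2 already bound at their promoters. Some encode transcription factors that switch on a later wave of genes, and others encode proteins that act directly at the synapse. In the cortex their transcripts are used as a record of which neurons were recently active, and they rise quickly with handling and dissection too.

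The transcription factors among the 10 are Fos, Fosb and Junb (subunits of the AP-1 dimer), Egr1 (a zinc finger factor), Npas4 (a neuronal factor that responds to calcium) and the orphan nuclear receptors Nr4a1 and Nr4a3. The effectors are Arc (AMPA receptor endocytosis), Bdnf (a secreted neurotrophin acting on TrkB) and Homer1 (a postsynaptic scaffold, whose short form is the activity-induced one). The matrices count each gene as a whole, so the forms of Homer1 and the transcripts from the several promoters of Bdnf were not separable. By GENCODE vM21 on mm10, the gene spans ran from 3384 bases for Fos to 105495 bases for Homer1. Homer1 (chr13:93299635-93405129, plus strand) overlaps Gm47075 and Gm47088 on its own strand, so its values are the less certain. Junb (chr8:84974484-84978718, minus strand) overlaps Prdx2 and Bdnf (chr2:109674700-109727007, plus strand) overlaps the antisense gene Gm45346, both on the other strand. What these overlaps on the other strand do to the counts of Junb and Bdnf was not tested. Intronic reads were counted, which gives the long genes more positions at which a nuclear transcript can be caught, and levels are therefore not ranked between genes.

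Promoters are shown because CREB is the factor most often placed upstream of these genes. The set of promoter windows used here, from RefSeq (GRCm38.p6), held 15 windows for 8 of the 10 members and none for Arc and Egr1. The 250 bases before the start were searched for TGACG, the core of the cAMP response element, on both strands, where it reads CGTCA on the other. Each of the 8 members had it in at least 1 window, 8 of 15 windows in all, and 17.7% of the 32817 promoter windows of all genes had it. The full palindrome TGACGTCA was in 0 of the 15 windows and in 1.55% of all, and the CArG box, the site of SRF, was in 0 of the 15 and in 1.47% of all. A match only says that these letters are present, and 0 matches does not exclude a site beyond the 250 bases or with other letters. The windows below belong to the 3 factors and the pair of effectors that the later results turn on, with the matches in capitals. They are Fos at chr12:85473640-85473889 (plus strand), Fosb at chr7:19310046-19310295 (minus strand), Npas4 at chr19:4989972-4990221 (minus strand), the first window of Homer1 at chr13:93303507-93303756 (plus strand) and the third of Bdnf at chr2:109692186-109692435 (plus strand), each written 5′ to 3′ on the gene's strand.
Fos: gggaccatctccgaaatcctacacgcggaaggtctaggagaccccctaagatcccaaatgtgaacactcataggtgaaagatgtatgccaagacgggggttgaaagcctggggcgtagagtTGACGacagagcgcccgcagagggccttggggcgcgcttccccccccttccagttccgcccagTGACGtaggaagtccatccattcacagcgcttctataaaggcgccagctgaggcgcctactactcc
Fosb: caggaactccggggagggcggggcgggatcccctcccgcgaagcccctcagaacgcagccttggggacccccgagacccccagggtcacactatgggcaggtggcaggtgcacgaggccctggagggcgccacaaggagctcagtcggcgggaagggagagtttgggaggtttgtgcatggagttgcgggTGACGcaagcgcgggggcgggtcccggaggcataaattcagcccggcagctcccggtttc
Npas4: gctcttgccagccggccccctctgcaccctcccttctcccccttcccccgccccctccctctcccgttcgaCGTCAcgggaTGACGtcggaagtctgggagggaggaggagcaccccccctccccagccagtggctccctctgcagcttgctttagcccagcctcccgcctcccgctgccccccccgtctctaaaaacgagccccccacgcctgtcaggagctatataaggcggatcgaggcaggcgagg
Homer1: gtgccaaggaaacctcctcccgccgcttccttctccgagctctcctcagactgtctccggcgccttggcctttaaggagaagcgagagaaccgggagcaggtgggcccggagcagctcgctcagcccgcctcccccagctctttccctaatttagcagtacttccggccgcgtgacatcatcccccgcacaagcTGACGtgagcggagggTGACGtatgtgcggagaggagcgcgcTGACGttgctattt
Bdnf: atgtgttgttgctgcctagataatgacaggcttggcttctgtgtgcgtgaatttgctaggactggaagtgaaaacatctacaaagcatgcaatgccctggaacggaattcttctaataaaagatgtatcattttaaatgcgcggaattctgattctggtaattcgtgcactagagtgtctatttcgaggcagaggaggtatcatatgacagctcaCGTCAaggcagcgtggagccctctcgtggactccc

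The libraries held 4997 to 9936 nuclei, 42595 in all, with median depths of 1637 to 6250 UMIs (unique molecules counted) per nucleus. SedGH of cohort 2 was the shallowest and SedGH of cohort 1 the deepest. Of the nuclei, 33689 were pyramidal (excitatory), 4226 inhibitory, and the rest glial, vascular or unnamed, and each pair of libraries shared at most 0.428% of the barcodes of the smaller one. Classes were built without the 10 members and were named from markers. All markers of the layer 2/3-like, mid-layer-like and layer 6 corticothalamic-like classes were higher there than elsewhere in every library, against 2 of 5 for the layer 5 intratelencephalic-like class, 5 of 7 for PV-like, 4 of 5 for SST-like and 3 of 5 for VIP-like nuclei. Levels below are a gene's UMIs per 1000000 UMIs of the class (CPM), so they describe shares of the RNA in the class, and p-values measure the spread between pooled libraries, which includes technical spread. Values in each library are given in the order RunGH and SedGH of cohort 1, then RunGH, SedGH, RunSI and SedSI of cohort 2.

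The members were not spread evenly over the neurons. In pyramidal nuclei 7 of the 10 were higher than in inhibitory nuclei of the same libraries, namely Bdnf, Arc, Nr4a3, Homer1, Npas4, Nr4a1 and Junb. Of all 15600 genes tested, 52.4% differed, 25.4% being higher and 26.9% lower in pyramidal nuclei (edgeR quasi-likelihood test with library as a block, Benjamini-Hochberg adjusted p under 0.05). Bdnf gave 28.5, 23.1, 34.4, 43.9, 26.8 and 40.1 CPM in pyramidal and 8.20, 4.69, 7.78, 1.29, 3.92 and 3.37 CPM in inhibitory nuclei. No library overlapped between the classes, and the log2 difference was 2.53 (SE 0.17, edgeR adjusted p = 1.933e-10). Arc, at 7.11, 8.79, 12.8, 12.8, 10.9 and 10.9 CPM in pyramidal and 2.88, 3.61, 4.21, 1.29, 2.11 and 2.69 CPM in inhibitory nuclei, was likewise higher in each library (log2 1.86, SE 0.19, edgeR adjusted p = 7.26e-08).

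Nr4a3 followed, with 15.5, 19.8, 6.63, 15.5, 8.05 and 13.6 CPM against 5.76, 8.30, 1.95, 3.86, 1.81 and 0.674 CPM (log2 1.80, edgeR adjusted p = 1.149e-07). Its lowest pyramidal library lay below its highest inhibitory one, but within each library the pyramidal value was the higher. Homer1 differed by 1.44 and Npas4 by 1.24 on the log2 scale (edgeR adjusted p = 3.887e-08 and 4.801e-07). Nr4a1 differed by 1.01 (SE 0.07, edgeR adjusted p = 1.431e-10), with 61.8 to 86.7 CPM in pyramidal and 34.0 to 51.9 CPM in inhibitory nuclei, and Junb by 0.62 (edgeR adjusted p = 0.0001507). The remaining members, Fosb, Fos and Egr1, did not pass the test, with log2 differences of 0.81, 0.53 and 0.27 and edgeR adjusted p = 0.0871, 0.0599 and 0.0562. With DESeq2 size factors 9 members and 8262 of 15600 genes were called, and with no filter on low counts 10 members and 8700 of 26676 genes. For Egr1 the classes overlapped widely, at 17.1 to 24.6 CPM in pyramidal and 10.8 to 29.6 CPM in inhibitory nuclei. Free RNA, which enters every droplet, moved with these values. The UMIs expected from it came to 79.4% or more of the Bdnf UMIs of inhibitory nuclei in every library, and to 27.2% to 57.8% of the Egr1 UMIs of pyramidal nuclei. For Nr4a3 of inhibitory nuclei the share was 33.5% to 135%. When free RNA was subtracted, Bdnf, Arc, Nr4a3, Egr1, Fos and Fosb of inhibitory nuclei were at 0 CPM in the lowest library, so no fold is given. Bdnf, Arc and Nr4a3 stayed called as higher in pyramidal nuclei, Egr1 passed the test too (edgeR adjusted p = 0.009918), and Fos and Fosb did not pass.

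The other genes of the pathway were counted in the same contrast. Of 30 genes that signal to the immediate early genes, 18 were higher and 2 lower in pyramidal nuclei, among them the calcium/calmodulin kinases Camk2a (log2 1.61) and Camk4 (log2 1.55). Of the 27 other rapid genes listed 21 passed the filter on low counts, with 10 higher and 2 lower, led by Klf10 (log2 3.06) and Egr3 (log2 1.35). Delayed effectors went both ways, with 15 of 28 higher, such as the kinase Mapk4 (log2 2.06), and 10 lower, such as the growth factor Igf1 (log2 −5.28).

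**Figure D1:**
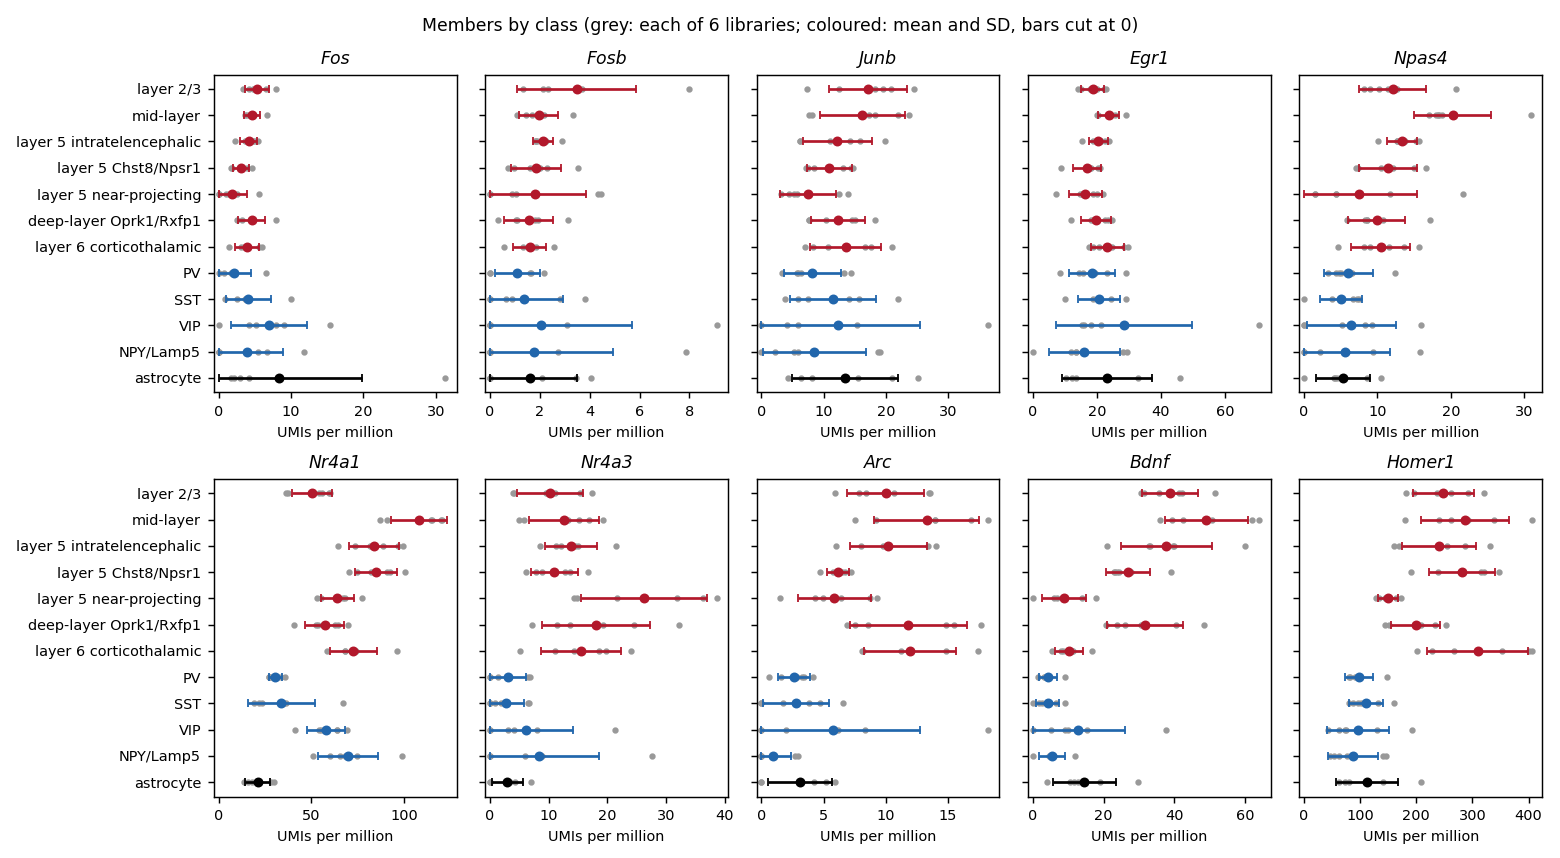
Levels of each member in CPM (x axis) in 12 classes (y axis), with 1 grey point for each of the 6 libraries and the mean and SD in red for pyramidal, blue for inhibitory and black for astrocyte-like nuclei, bars cut at 0. Bdnf was lowest among the pyramidal classes in layer 5 near-projecting-like and layer 6 corticothalamic-like nuclei (8.88 and 10.2 CPM), whereas Nr4a3 was highest in the former (26.3 CPM).

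Within the pyramidal nuclei the members had different class orders, given here for 7 classes without the small layer 6b-like one (209 nuclei in 4 libraries). Bdnf was highest in mid-layer-like nuclei (49.0 ± 11.8 CPM, SD, n = 6 libraries), followed by layer 2/3-like (38.7 ± 7.82), layer 5 intratelencephalic-like (37.7 ± 12.8), deep-layer Oprk1/Rxfp1-like (31.6 ± 10.7) and layer 5 Chst8/Npsr1-like nuclei (26.8 ± 6.21), and each of these overlapped its neighbour in the order. It then dropped to 10.2 ± 3.87 CPM in layer 6 corticothalamic-like and 8.88 ± 6.25 CPM in near-projecting-like nuclei, below the 20.65 CPM of the lowest library in the other 5 classes. Free RNA could account for 23.8% to 69.6% and 19.1% to 105% of the Bdnf UMIs in these classes, and with it subtracted they held 6.33 ± 4.22 and 4.72 ± 5.84 CPM. Nr4a3 ran the other way, with 26.3 ± 10.7 CPM in near-projecting-like, 18.0 ± 9.22 in deep-layer Oprk1/Rxfp1-like and 15.5 ± 6.76 in layer 6 corticothalamic-like nuclei, against 10.2 ± 5.58 in layer 2/3-like nuclei, all overlapping their neighbours. Its relative Nr4a1 peaked in mid-layer-like nuclei at 108 ± 15.0 CPM and was lowest in layer 2/3-like nuclei at 50.5 ± 10.8 CPM, with no overlap of libraries between these classes.

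Npas4 was highest in mid-layer-like nuclei as well (20.2 ± 5.26 CPM), ahead of layer 5 intratelencephalic-like (13.3 ± 2.02) and layer 2/3-like nuclei (12.1 ± 4.55), and its libraries overlapped there with the latter. Homer1 ranged from 309 ± 89.3 CPM in layer 6 corticothalamic-like to 149 ± 17.6 CPM in near-projecting-like nuclei. Arc lay between 13.3 ± 4.20 CPM in mid-layer-like and 5.87 ± 2.91 CPM in near-projecting-like nuclei, and Junb between 17.1 ± 6.21 CPM in layer 2/3-like and 7.51 ± 4.53 CPM in near-projecting-like nuclei. Fos and Fosb were at their highest among pyramidal classes in layer 2/3-like nuclei (5.32 ± 1.67 and 3.47 ± 2.37 CPM), and Fos at its lowest in near-projecting-like nuclei (1.79 ± 2.11 CPM, 14 UMIs in all). In near-projecting-like nuclei the UMIs expected from free RNA came to 43.8% to 162% for Junb and 31.8% to 99.8% for Fos, and subtraction left 3.52 ± 3.19 and 0.939 ± 1.65 CPM. All members but Nr4a1, Nr4a3 and Homer1 were then at 0 CPM in the lowest library of that class. Egr1 as counted lay between 16.4 ± 5.21 CPM in near-projecting-like and 23.7 ± 3.32 CPM in mid-layer-like nuclei. The UMIs expected from free RNA came to 57.9% to 132% of its UMIs in the former and 21.7% to 50.4% in the latter, and with them subtracted the class means ran from 4.63 ± 3.56 to 16.0 ± 6.12 CPM.

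Among the inhibitory classes Homer1 and Nr4a1 held the most UMIs to compare, which is not a ranking of levels between genes. Homer1 overlapped between all 4, with means over the 6 libraries of 109.9 CPM in SST-like (80.45 to 160.2), 98.5 CPM in PV-like (80.2 to 147.6), 95.6 CPM in VIP-like (42.7 to 192.4) and 87.4 CPM in NPY/Lamp5-like nuclei (46.7 to 145.5). Nr4a1 reached 69.7 ± 16.3 CPM in NPY/Lamp5-like and 57.9 ± 10.1 CPM in VIP-like nuclei, above the 30.7 ± 3.69 CPM of PV-like nuclei in every library, with SST-like nuclei (33.9 ± 17.9 CPM) overlapping all of them. Arc had 2 UMIs in all NPY/Lamp5-like nuclei, and Fosb had 2 to 9 UMIs in each inhibitory class. Astrocyte-like nuclei had 8.42 ± 11.5 CPM of Fos, from 16 UMIs, with 31.3 CPM in 1 library and the lowest at 1.73 CPM. The UMIs expected from free RNA came to 7.36% to 166% of these, and left 0 CPM in the lowest library.

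A direct test of layer 2/3-like against layer 6 corticothalamic-like nuclei of the same libraries called 8 of the 10 members, 4 in each direction, while 42.6% of all 14298 genes tested were called, 23% higher and 19.6% lower. In layer 2/3-like nuclei Bdnf gave 35.7, 30.7, 42.2, 51.3, 31.3 and 41.2 CPM, against 8.60, 7.89, 11.5, 16.7, 5.45 and 11.2 CPM in layer 6 corticothalamic-like nuclei (log2 2.00, SE 0.10, edgeR adjusted p = 8.068e-12). The classes did not overlap, and the difference held its call under all 14 alternatives. The AP-1 genes were higher in layer 2/3-like nuclei too, Fosb by 1.24 (SE 0.25), Fos by 0.63 and Junb by 0.35 on the log2 scale (edgeR adjusted p = 0.0004599, 0.01888 and 0.0232). For Fosb the layer 2/3-like values were 3.70, 7.98, 1.33, 3.39, 2.33 and 2.11 CPM, and SedGH of cohort 1 stood highest. Lower in layer 2/3-like nuclei were Nr4a3 (log2 −0.58, SE 0.15), Nr4a1 (−0.54, SE 0.09), Egr1 (−0.35, SE 0.08) and Homer1 (−0.29, SE 0.06), with edgeR adjusted p = 0.003697, 6.681e-05, 0.002005 and 0.0007443. Npas4 (0.15) and Arc (−0.27) did not pass. Without RunGH of cohort 1 the Fos difference was 0.43 and without SedGH of cohort 1 the Junb difference was 0.27, and neither passed the test (edgeR adjusted p = 0.1049 and 0.1018). DESeq2 did not call these latter genes either (adjusted p = 0.09454 for Fos and 0.09742 for Junb).

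In the same layers the delayed effectors were called in 19 of 25 genes tested, 13 higher in layer 2/3-like nuclei and 6 lower, with the largest gaps for the chromatin factor Baz1a (log2 3.61) and Mapk4 (log2 3.34). Of 19 partners of the encoded proteins, 8 were higher and 6 lower. Those higher included Grm5, a glutamate receptor that Homer1 binds (log2 1.03), and Sort1, a sorting receptor of Bdnf (log2 0.78). Among the 18 other rapid genes tested, Btg2 (log2 0.94) and Egr4 (log2 1.01) were of the 7 higher and Klf10 (log2 −1.43) of the 6 lower.

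Over 14 classes with enough nuclei, each member's profile of mean log2(CPM + 1) was compared with those of 13554 genes, as a description over classes that share libraries and depth. The most alike genes were Slc35b3 for Fos (Pearson r = 0.888), Gm36560 for Fosb (0.936), Gm11973 for Junb (0.916), Tmco6 for Egr1 (0.849) and Ccdc7b for Npas4 (0.952). They were Gm20208 for Nr4a1 (0.936), Foxp1, a transcription factor of deep layers, for Nr4a3 (0.938), Utp4 for Arc (0.964), Crhr1, a receptor of corticotropin-releasing hormone, for Bdnf (0.936) and Celf2 for Homer1 (0.952). The members themselves were left out of this ranking, and between them the highest values were 0.874 for Fosb with Npas4 and 0.872 for Npas4 with Arc. Each r is the largest of many on only 14 points, so its size owes something to that choice. Some class means also rest on few counts, as Fosb had 2 UMIs in all VIP-like and 3 in all NPY/Lamp5-like nuclei.

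Immediate early genes are induced together in an active neuron, so the members were also counted in pairs within single pyramidal nuclei. For each pair, the nuclei with at least 1 UMI of both genes were set against the number expected from the share of nuclei with each gene within the same library, cluster and depth bin. In 40 of the 45 pairs more nuclei held both genes than expected in each of the 6 libraries, and in 0 pairs fewer in each. For members paired with 12896 other genes found in 1% of pyramidal nuclei or more, 2.79% of pairs were above expectation in all 6 libraries and 4.01% below it in all 6. An exact 2-sided sign-flip test over the libraries gives p = 0.03125 for each of the 40 pairs, the smallest that 6 libraries allow. Adjusted over the 45 pairs (Benjamini-Hochberg), the sign-flip test gave 0.03516 for each of them. With any 1 library left out the smallest p this test allows is 0.0625, so 0 pairs were called, while 40 to 43 pairs were above expectation in every library left. In the remaining 5 pairs, Fosb with Nr4a3, Fosb with Egr1, Fos with Bdnf, Egr1 with Arc and Egr1 with Bdnf, 5 of 6 libraries were above expectation.

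The 5 pairs with the highest mean ratio joined Fos or Fosb with each other or with Npas4, Arc or Junb. Fos and Npas4 were found together in 45, 69, 22, 9, 38 and 9 nuclei, where 12.2, 20.7, 6.5, 1.11, 8.86 and 2.99 were expected, a mean log2 ratio of 1.88 ± 0.39 (SD, n = 6 libraries). Every library was well above its expectation, including the shallowest. Fos and Fosb shared 57 nuclei against 9.65 expected (log2 1.91 ± 0.65), Fos and Arc 135 against 37.2 (1.72 ± 0.28), Fosb and Arc 68 against 17.3 (1.64 ± 0.47) and Fos and Junb 163 against 48.3 (1.59 ± 0.38). Nr4a3 and Bdnf shared 431 nuclei against 231.5 (0.87 ± 0.13), while Nr4a1 and Homer1 shared 6135 against 5794 (0.10 ± 0.06). All 9 pairs of Homer1 lay between 0.10 and 0.26. A ratio cannot exceed the inverse of the share of nuclei that hold the more common gene, so sizes are not comparable between pairs of rare and of common genes.

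**Figure D2:**
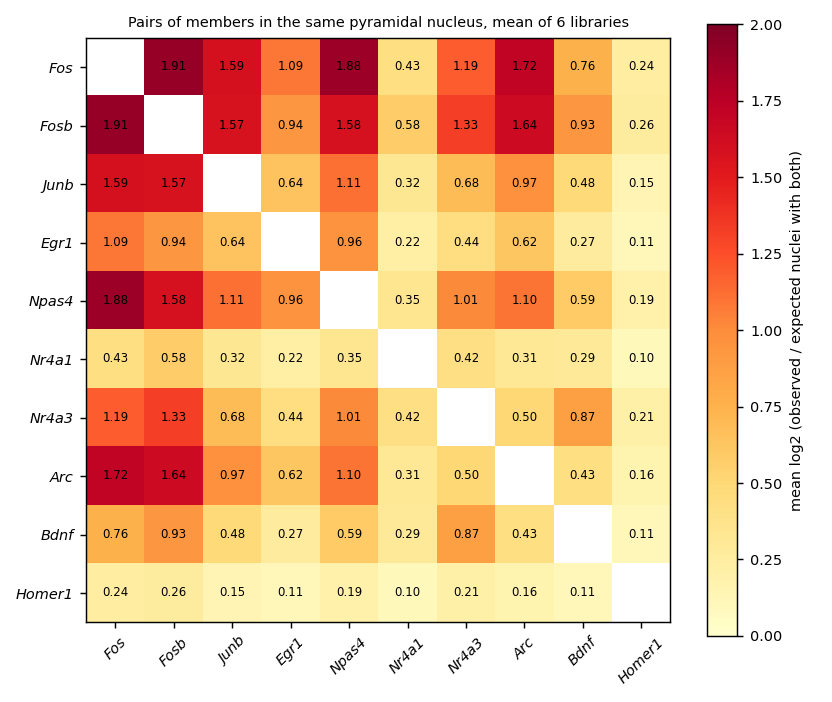
Mean over 6 libraries of the log2 ratio of observed to expected pyramidal nuclei that hold UMIs of both members (colour and number in each cell, rows and columns are members). The darkest cells join Fos with Fosb (1.91), Npas4 (1.88) and Arc (1.72), and the Homer1 row runs from 0.10 to 0.26.

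Ranked by the same ratio, the other genes found most often with Fos were Btg2 (1.80), Egr4 (1.70), Gadd45g (1.49) and Tiparp (1.46). With Npas4 they were Gadd45g (1.42), Egr4 (1.40) and Fosl2 (1.37), and with Nr4a1 they were Fosl2 (0.59) and its relative Nr4a2 (0.51). Apart from Tiparp these are among the other rapid genes listed. The genes found most often with some other members were not all of this kind. Egr1 had the rapid gene Egr3 (0.79) first, but Tmem18 (0.59) next. Homer1 was led by C1qa (0.23) and Gm17501 (0.22), and Bdnf by Baz1a (1.17), a delayed effector. The count of 40 pairs was 40 with called doublets removed, 40 with nuclei of at least 1000 genes, 38 with 20 depth bins and 42 with strata of library and depth only. Nuclei with UMIs of 5 or more members made up 0.245% to 4.12% of pyramidal nuclei, lowest in the shallowest library and highest in the deepest.

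Free RNA was compared with nuclei because its level sets the floor of every value above. It was taken from barcodes of 30 UMIs up to 0.5 of the smallest count that made a nucleus, whose median was 81 to 300 UMIs in cohort 2 and 960 and 1093 in cohort 1, so the deeper barcodes of cohort 1 may also hold pieces of nuclei. As shares of all UMIs 8 of the 10 members were lower in nuclei, where 59.5% of the 19447 genes tested differed, 30.5% lower and 29% higher. Egr1 gave 20.6, 24.6, 23.1, 18.1, 21.3 and 16.7 CPM in nuclei and 58.8, 45.7, 190.3, 242.2, 177.1 and 233.3 CPM in free RNA, a log2 difference of −2.61 (SE 0.41, edgeR adjusted p = 0.002201). In free RNA every cohort 2 library was above every cohort 1 library, whereas in nuclei the cohorts overlapped. Junb (−1.78), Fos (−1.71), Fosb (−1.57), Arc (−1.11) and Bdnf (−0.90) were lower in nuclei as well, with edgeR adjusted p from 0.001998 to 0.02251, as were Nr4a3 (−0.62, adjusted p = 0.0461) and Npas4 (−0.49, adjusted p = 0.02361). SedGH of cohort 1 went the other way for Fos (6.85 CPM in nuclei and 5.86 in free RNA), Fosb (3.70 and 2.79), Arc (8.21 and 7.96) and Nr4a3 (18.15 and 17.1). Nr4a1 (0.31) and Homer1 (−0.09) did not pass. Homer1 was lower in nuclei in both cohort 1 libraries (269 against 397 and 179 against 307 CPM) and higher in both Sed libraries of cohort 2 (304 against 258 CPM in SedGH). Leaving out RunGH, SedGH or SedSI of cohort 2 left 5 members called, while the genes called went from 11564 to 7939, 8607 and 8163. With free RNA from barcodes under 100 UMIs Nr4a3 was at −0.08 and not called (edgeR adjusted p = 0.9919).

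**Figure D3:**
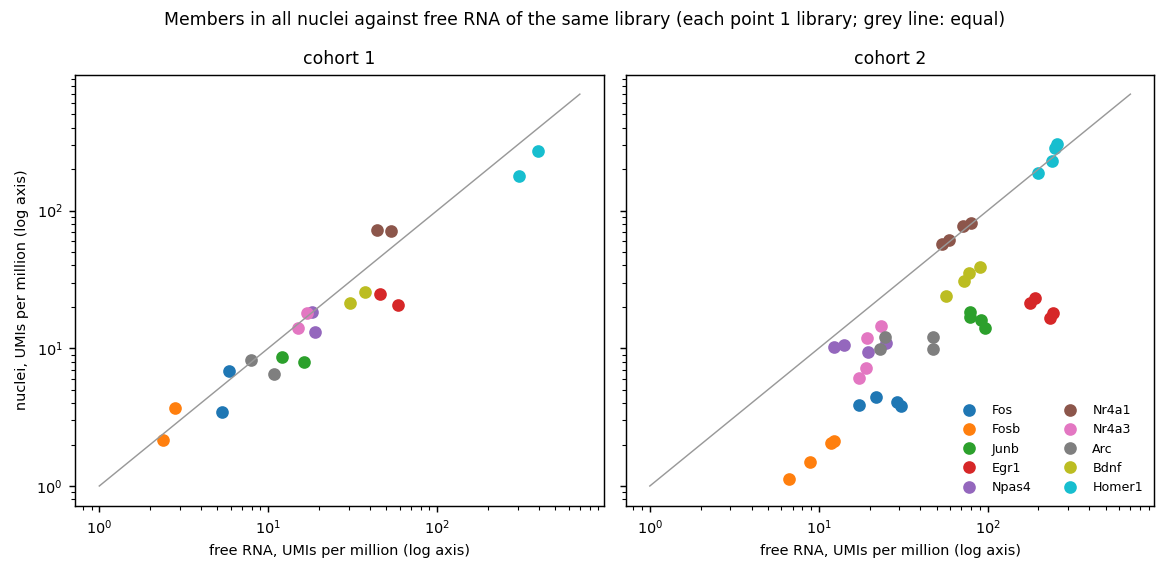
Level of each member in nuclei (y axis) against free RNA (x axis), both in CPM on log axes, 1 point for each library, cohort 1 on the left and cohort 2 on the right, with a grey line where both are equal. Egr1 lies farthest below the line in cohort 2 (177.1 to 242.2 CPM in free RNA), while Homer1 lies below the line in both libraries of cohort 1 (269 and 179 CPM in nuclei, 397 and 307 CPM in free RNA).

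The genes around the members differed by group in the same contrast. Of 25 other rapid genes 21 were lower in nuclei and 3 higher, the lower ones led by Jund (log2 −2.30), Jun (−2.02) and Ier2 (−2.35), and of 28 delayed effectors 16 were lower, such as the neuropeptide genes Tac1 (−2.75) and Scg2 (−2.62). Of 20 partners 11 were higher in nuclei, among them the scaffold Shank2 (log2 1.33), and of 30 signalling genes 6 were higher and 7 lower.

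The cohorts differed in how males were handled and picked, with tube tests and a choice by rank in cohort 1 only. They also differed in depth, and the study profiled them in separate experiments. In cohort 1, 32.9% (RunGH) and 19.0% (SedGH) of UMIs lay in nuclei, against 56.4% to 61.9% in cohort 2. None of these can be told apart. In pyramidal nuclei 5 of the 10 members differed between cohorts, with 38.2% of 17949 genes called, 20.3% higher and 17.9% lower in cohort 2 (edgeR quasi-likelihood test, terms for cohort, maternal environment and housing). Lower in cohort 2 were Fosb (log2 −1.14, SE 0.29), Nr4a3 (−0.96, SE 0.25) and Npas4 (−0.65, SE 0.19), with edgeR adjusted p = 0.02495, 0.0277 and 0.03726. Higher in cohort 2 were Junb (0.90, SE 0.16) and Arc (0.53, SE 0.15), with edgeR adjusted p = 0.007424 and 0.03675. Junb gave 7.71 and 9.18 CPM in cohort 1 and 18.3, 16.9, 17.5 and 15.0 CPM in cohort 2, with a wide gap between the cohorts. Fosb gave 2.51 and 3.91 against 1.08, 2.38, 1.51 and 2.27 CPM, and Npas4 13.9 and 19.8 against 11.65, 12.1, 11.4 and 9.75 CPM, also without overlap. Nr4a3 overlapped, since SedGH of cohort 2 was level with RunGH of cohort 1 at 15.5 CPM.

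The other members, Fos, Egr1, Nr4a1, Bdnf and Homer1, had log2 values from −0.49 to 0.41 and did not pass. Fos was highest in SedGH of cohort 1 at 7.19 CPM and lay between 3.45 and 4.75 CPM in all other libraries. The free RNA moved with the cohort, as given above for Egr1, and Junb was at 16.3 and 12.1 CPM in the free RNA of cohort 1 and at 78.7, 90.9, 78.9 and 97.1 CPM in that of cohort 2. When free RNA was subtracted, Junb remained called at 0.77, Fosb at −1.60 and Nr4a3 at −1.06, Egr1 was called lower in cohort 2 at −0.95 (edgeR adjusted p = 0.04616), and Npas4 and Arc no longer passed (adjusted p = 0.07087 and 0.1087). The calls depended on single libraries. Without RunGH, RunSI or SedSI of cohort 2, 1 member was called each time, without SedGH of cohort 2 there were 3, and the calls over all genes went from 6859 to between 3410 and 3811. Without RunGH or SedGH of cohort 1 there were 8 and 7 members, with 9037 and 9242 genes. Junb stayed called under all 12 alternatives.

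Around the members, 7 of 25 other rapid genes were higher in cohort 2, among them Jund (log2 1.22), Jun (1.60), Ier5 (1.88) and Klf10 (1.95), and 2 lower, Per1 (−0.79) and Nr4a2 (−1.11). Of 30 signalling genes 0 were higher and 15 lower, among them the CREB coactivator Crtc1 (log2 −1.04), the adenylyl cyclase Adcy1 (−1.18), Rps6ka2 (−1.09) and Mef2d (−0.95). Heat shock genes, which also respond to tissue handling, were higher in 7 of 11 and lower in 1, with Hspa8 at 2.03 and Hsp90ab1 at 1.59, and their summed level ran from 223.7 to 227.9 CPM in cohort 1 and from 418.0 to 545.9 CPM in cohort 2. The 11 nuclear and mitochondrial RNAs had 9 higher and 1 lower, with a median of 2.55. The part of handling and RNA quality in the cohort differences of the members was not tested. In inhibitory nuclei 9 members passed the filter on low counts, Fosb not, and 2 differed between cohorts, Npas4 (log2 −1.37, SE 0.47, edgeR adjusted p = 0.03507) and Homer1 (−0.93, SE 0.16, adjusted p = 0.000547), with 35.5% of 12886 genes called, 19% higher and 16.5% lower. Homer1 gave 154.5 and 118.4 CPM against 84.9, 72.1, 86.5 and 84.9 CPM there. Npas4 lost its call without SedGH of cohort 1 or any 1 library of cohort 2, though its log2 stayed between −1.993 and −1.155 with 1 library left out. Neither gene was called after free RNA was subtracted.

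**Figure D4:**
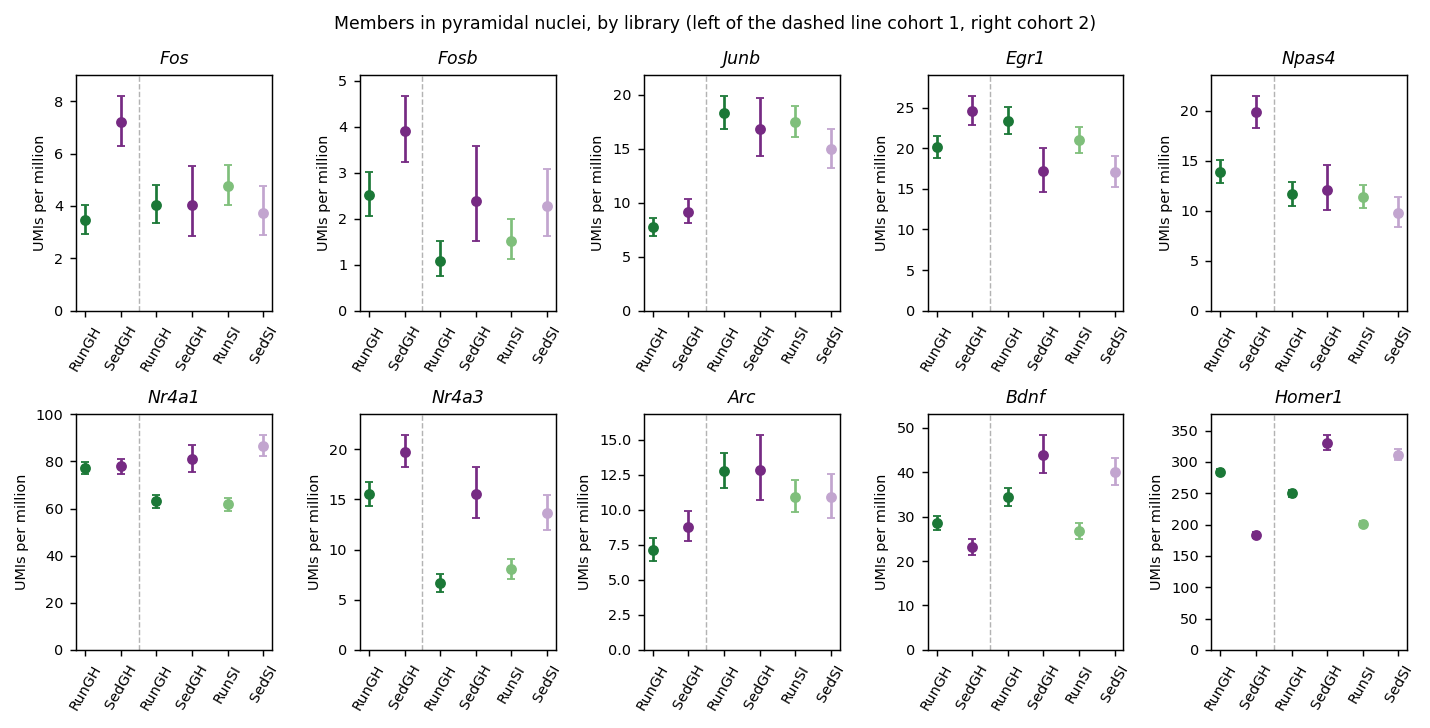
Level of each member in pyramidal nuclei in CPM (y axis) for each library (x axis), cohort 1 left and cohort 2 right of the dashed line, Run in green and Sed in purple, with bars for the 95% counting interval. Junb is higher in all 4 libraries of cohort 2 (15.0 to 18.3 CPM) than in cohort 1, and Homer1 is higher in Run in cohort 1 and in Sed in cohort 2.

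Run was compared with Sed to ask whether expression in these nuclei differs with the maternal environment. Over all 6 libraries, the Run against Sed contrast in pyramidal nuclei called 0 of the 10 members and 0% of 17949 genes (edgeR quasi-likelihood test), with 1321 genes at an unadjusted p under 0.05, while DESeq2 called 49 genes and 0 members. On the log2 scale 9 of the 10 members were below 0, from −0.80 to 0.09. Their median was −0.222, and that of all genes tested was −0.0025. At an unadjusted p under 0.05 were Nr4a3 (−0.80, SE 0.20), Fosb (−0.80, SE 0.23) and Nr4a1 (−0.33, SE 0.13), with edgeR adjusted p = 0.6614, 0.6614 and 0.6764. Nr4a3 and Fosb were lower in Run than in Sed in each of the 3 pairs of matched cohort and housing. Both were picked by their p in these same libraries, so the agreement of the pairs is no separate result. How many of all genes were lower in all 3 pairs was not counted. For Nr4a3 the 3 log2 ratios were −0.35, −1.23 and −0.76, all with counting intervals below 0, and for Fosb they were −0.64, −1.14 and −0.59, the last with an interval from −1.22 to 0.05. The nuclear and mitochondrial RNAs had a median log2 of 1.11 in Run against Sed, but their summed level was lower in Run in each pair, at 41480 against 46880, 112600 against 128800 and 113100 against 134500 CPM, and their part was not tested.

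The Run and Sed difference was not the same in both cohorts. The test of that difference, the interaction of maternal environment with cohort, called 5 of the 10 members, 1 above and 4 below 0, against 12.3% of 18696 genes, 4.51% above and 7.75% below 0. Homer1 gave 284.4 CPM in Run and 184.0 CPM in Sed of cohort 1, so Run was higher by a log2 of 0.63 (95% counting interval 0.58 to 0.67). In cohort 2 it gave 249.8 against 330.7 CPM in group housing and 201.2 against 311.7 CPM in isolation, so Run was lower by −0.41 (−0.46 to −0.35) and −0.63 (−0.68 to −0.58). The interaction was −1.28 (SE 0.13, edgeR adjusted p = 1.137e-14). Bdnf turned in the same way, at 28.5 against 23.1 CPM in cohort 1, then 34.4 against 43.9 CPM and 26.8 against 40.1 CPM in cohort 2 (interaction −0.90, SE 0.18, edgeR adjusted p = 7.025e-05).

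The nuclear receptors did not turn but were farther below 0 in cohort 2. Nr4a1 was level in cohort 1, at 77.1 CPM in Run and 77.9 CPM in Sed, and lower in Run in cohort 2, at 63.1 against 81.2 CPM and 61.8 against 86.7 CPM (interaction −0.54, SE 0.15, edgeR adjusted p = 0.005105). For Nr4a3 the interaction was −0.75 (SE 0.23, edgeR adjusted p = 0.01754). Fos went the other way. It was 3.45 CPM in Run and 7.19 CPM in Sed of cohort 1, a log2 of −1.06 (−1.37 to −0.75), but 4.03 against 4.04 CPM and 4.75 against 3.74 CPM in cohort 2 (interaction 1.12, SE 0.34, edgeR adjusted p = 0.0149). Egr1 (0.53) and Npas4 (0.48), which also had their Run value below Sed in cohort 1, did not pass, nor did Fosb, Junb and Arc. Cohort 1 males were picked by rank, which cannot be told apart from cohort here. The study can be read as top Run and bottom Sed males, so rank may also go with Run and Sed in cohort 1. Adjusted for library size, 1 of the 2 cohort 1 libraries held 0.708 of the layer 6 corticothalamic-like nuclei. The largest share among the 4 cohort 2 libraries was 0.294. That class was low in Bdnf and high in Homer1, and the part of class composition was not tested. The interaction fit has 1 residual degree of freedom, and its p-values lean on the spread pooled over genes. Its terms fit both cohort 1 libraries exactly, so its p-values hold no measure of spread between libraries of cohort 1. DESeq2 called 411 genes and, of the members, Homer1 only. With free RNA subtracted, Nr4a3 was at −0.86 and did not pass (edgeR adjusted p = 0.05317), while Egr1 passed at 0.88 (edgeR adjusted p = 0.047).

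**Figure D5:**
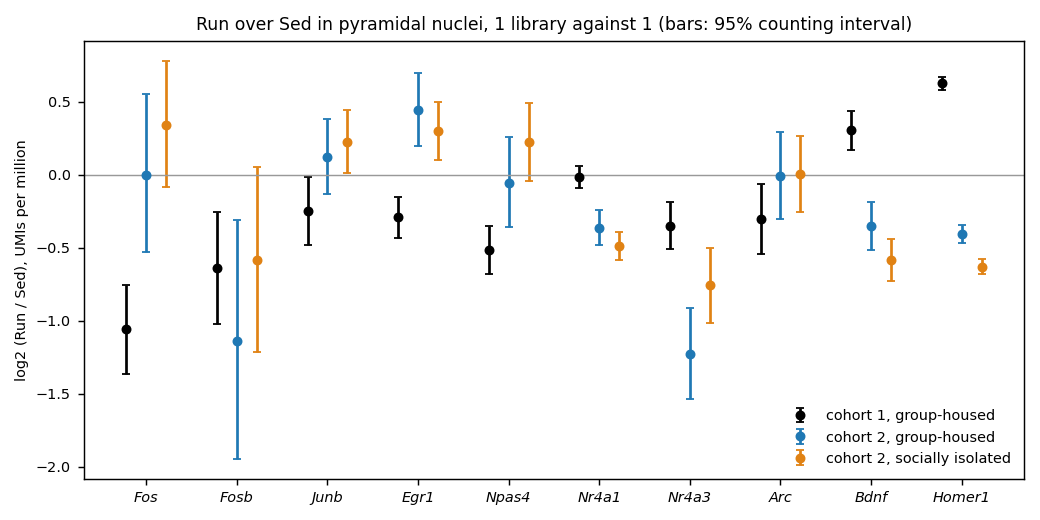
Log2 ratio of Run to Sed in pyramidal nuclei (y axis) for each member (x axis), 1 library against 1, for group-housed cohort 1 (black), group-housed cohort 2 (blue) and socially isolated cohort 2 (orange), with bars for the 95% counting interval. Homer1 and Bdnf are above 0 in cohort 1 and below 0 in both pairs of cohort 2, and Nr4a3 is below 0 in all 3 pairs.

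The 4 libraries of cohort 2 were also tested alone, a comparison added after the values were seen. Of 17052 genes 2271 were called, 829 higher and 1442 lower in Run. Of the members 0 were called higher and 4 lower in Run. The latter were Nr4a3 (log2 −1.07), Homer1 (−0.61), Bdnf (−0.57) and Nr4a1 (−0.52), with edgeR adjusted p = 0.0004703, 9.115e-05, 0.001724 and 0.0007103. That fit has 1 residual degree of freedom. Leaving out RunGH or SedGH of cohort 1 from the full contrast leaves 1 cohort 1 library, which the cohort term fits exactly. Those fits rest on the cohort 2 libraries again and are no separate result, with a median log2 of the members of −0.305 in each. In cohort 2 the Sed libraries had the smaller share of mitochondrial UMIs (0.115% and 0.162%, against 0.306% and 0.308% in Run), and SedGH had a median depth of 1637 UMIs where RunGH had 3396.5, and their part was not tested. For the interaction, the delayed effectors had 0 of 28 higher and 5 lower, among them the prohormone convertase Pcsk1 (log2 −1.61), Inhba (−1.15), Spred1 (−1.12) and Mapk4 (−0.79). Of 26 other rapid genes 2 were higher, Btg2 (1.14) and Gadd45g (1.08), and 2 lower, Klf10 (−1.06) and Per1 (−0.60). Of 20 partners 0 were higher and 2 lower, among them Sort1, and 0 of 12 heat shock genes passed in either direction.

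Isolated males were in cohort 2 only, and housing was a term in the fit over all 6 libraries. In pyramidal nuclei 0 of 10 members and 0% of 17949 genes were called for SI against GH, with 166 genes and 0 members at an unadjusted p under 0.05, and the members lay between −0.23 and 0.23 on the log2 scale, 4 above and 6 below 0. The cohort 2 libraries alone gave 0 called of 17052 genes by edgeR, with 725 genes and 2 members, Bdnf (log2 −0.24) and Homer1 (−0.19), at an unadjusted p under 0.05. In inhibitory nuclei 0 of 9 members were called for housing (log2 −0.73 to 0.21) and 0 of 9 for maternal environment (log2 −0.83 to 0.90), where 0.0776% of 12886 genes were called for the latter (0.0621% higher and 0.0155% lower in Run), 7 of its 10 genes being nuclear or mitochondrial RNAs. With 455 to 1056 inhibitory nuclei in a library these values are wide, as the SE of 0.50 for Fos and 0.57 for Arc in the maternal contrast shows.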

How the data were processed

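Single-nucleus RNA-seq (10x Chromium 3′, V3) of 6 libraries was analysed. Per the labels, the authors made the deposited UMI counts with Cell Ranger 6.0.0 on mm10, and the study counted intronic reads; the files hold raw counts of all barcodes, without normalization. Nuclei were barcodes with 500 to 4000 genes, at most 1% mitochondrial UMIs and at least 621 to 3156 UMIs, a minimum set for each library from the number of nuclei the study gives. They were clustered per cohort (scanpy 1.11.5, 3000 genes, 35 components, Leiden resolution 0.6) without the members and the listed genes, and named from markers. Doublets (Scrublet, 1.09% to 6.75%) were kept and removed in an alternative. Counts were summed per library and class and tested with edgeR 4.0.16 (quasi-likelihood, TMM, filterByExpr, Benjamini-Hochberg over all genes tested, threshold 0.05). Main designs had terms for cohort, maternal environment and housing (2 residual degrees of freedom), plus the interaction (1), or library and class.

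The labels give the cohort of each library, and cohort is the replicate block in the main fits. Run and Sed libraries were paired here by cohort and housing. Members and lists were chosen with earlier results of these data known. All 10 members entered each comparison before the filter on low counts. Some comparisons name only a part of them and give the others by a range or a count. Of the lists, up to 4 genes with the smallest p among those that passed are named, and in the text any gene outside this was picked for its role after its value was seen. A further gene that this rule would name is not reported here. Gene lists were other rapid genes, delayed effectors, signalling genes, partners, heat shock genes, and nuclear and mitochondrial RNAs. Alternatives were DESeq2 1.42.0, its size factors in edgeR, no filter on low counts, at least 1000 genes, free RNA subtracted, members kept in clustering, no block, and leaving out libraries. On simulated counts the maternal contrast in pyramidal nuclei recovered 57.1% of genes changed by 1 and 88.7% of those changed by 2 on the log2 scale, over 17703 genes. It also called 17 unchanged genes. The simulation gave every Run library the same change, so changes that differ between cohorts were not covered. Counting intervals (95%, exact Poisson) cover counting error only. Other versions were Python 3.11.15, R 4.3.3 and limma 3.58.1.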

Additional observations from a re-analysis of the deposited data

Results flagged for a closer look

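The effect of the maternal environment in pyramidal nuclei differed between the cohorts for 5 members, by the interaction term of edgeR's quasi-likelihood test. The log2 interaction (cohort 2 minus cohort 1, Run minus Sed) was −1.28 for Homer1, −0.90 for Bdnf, −0.75 for Nr4a3, −0.54 for Nr4a1 and 1.12 for Fos. Cohort 1 enters with a single pair of libraries, which the fit matches exactly, and cohort 2 with a pair in each housing. The p-values therefore hold no measure of spread within cohort 1. The cohort, its handling before tissue was taken and the choice of its males by tube-test rank cannot be told apart. The same holds for its depth and its share of UMIs in nuclei. The part of class composition was not tested. DESeq2 called the difference for Homer1 and not for the other 4. With free RNA subtracted, edgeR's quasi-likelihood test did not call Nr4a3 (log2 −0.86, adjusted p = 0.05317), the other 4 stayed called, and Egr1 was called at 0.88 (adjusted p = 0.047).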

How the results depend on the processing

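The 38 results on single members were those called, and those at an unadjusted p under 0.05 in the maternal contrast of pyramidal nuclei. For these, 473 alternative values were computed: 400 kept their direction and side of the threshold, 65 lost the call, 8 gained it and 0 changed direction. Member values outside this set are not in these counts. Most losses came with a library of cohort 2 left out, with no block and with DESeq2. For maternal environment in pyramidal nuclei, the cohort 2 libraries alone gave 4 members and 2271 genes, DESeq2 49 genes and no filter on low counts 9 genes; leaving out 1 library gave 0 to 5 members and 0 to 3011 genes. For cohort, DESeq2 called 3 members, and leaving out 1 library gave 1 to 8 members and 3410 to 9242 genes. For housing, leaving out 1 library gave 0 to 65 genes. For the interaction DESeq2 called 1 member and 411 genes, and fits without 1 library could not be made, with 0 residual degrees of freedom. In inhibitory nuclei, the maternal contrast called 16 genes by DESeq2, 47 with no filter, 0 with free RNA subtracted, 356 in cohort 2 alone and 5 to 418 without 1 library. Housing called 1 gene with no filter, 1 in cohort 2 alone and 0 to 1 without 1 library. Cohort called 1 member by DESeq2, 1 with at least 1000 genes, 0 with free RNA subtracted and 1 to 2 without 1 library, and 2175 genes by DESeq2, 2873 with free RNA subtracted and 1823 to 5486 without 1 library. Of nuclei against free RNA, leaving out 1 library gave 5 to 8 members and 7905 to 13113 genes. Without the replicate block, the maternal contrast called 0 members in either class, and in inhibitory nuclei 0 genes; without the library block, pyramidal against inhibitory nuclei gave 6 members and 3748 genes, layer 2/3-like against layer 6 corticothalamic-like nuclei 1 member and 2530 genes, and nuclei against free RNA 6 members and 7581 genes. The fit without the cohort or library term changed no other count of members by more than 1.5 times. The causes of these moves were not tested. Depth limits Fos and Fosb most, with 757 and 375 UMIs in all pyramidal nuclei.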
